A study of Mus musculus with 8 samples.

Results

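Genes for the nitric oxide, prostaglandin and adhesion arms of the inflammatory response were followed in primary mouse hepatocyte cultures with and without transglutaminase 2. The set was defined by symbol and held 8 genes: Nos2, Ptgs1, Ptgs2, Ptges, Ptgds, Icam1, Vcam1 and Hcar2. All probe sets that the platform annotation gave exactly 1 of these symbols were used, which came to 13 of the 45037 non-control probe sets on the array and covered 7 of the 8 genes. No probe set was matched to Ptgs1, which is not analysed here. All 13 probe sets passed the filter on dim values and were among the 19814 tested. Those of Nos2 and Ptgs2 passed only through their level in the knockout. For a gene with several probe sets the brightest by mean leads and the others are given with it. The set was proposed with results in view: Nos2 and Hcar2 were known among the largest increases in untreated knockout cells, and Ptgs2 among the largest decreases with ethanol in wild-type cells. Differences in those 2 comparisons are therefore described without a p-value, as are those of Nos2, Hcar2 or Ptgs2 in any comparison that shares the arrays in which that gene had stood out.

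Cultures came from wild-type mice (WT) and from mice lacking transglutaminase 2 (KO), both on a C57BL6/129SVJ background, and were incubated for 15 h, either untreated or in 100 mM ethanol. Each of the 4 groups had 2 arrays, A and B. The age and sex of the mice, how the allele was made, and whether A and B came from separate animals were not given in the sources used here, so each p-value reflects the spread between arrays, which may be purely technical. The treatment text of the B arrays of both ethanol groups reads as an untreated incubation, against their titles, which were followed.

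Inducible nitric oxide synthase, encoded by Nos2, makes nitric oxide from arginine and is induced by cytokines and bacterial products in macrophages and also in hepatocytes. Prostaglandins are made from arachidonic acid by the cyclooxygenases Ptgs1 and Ptgs2, after which terminal synthases such as Ptges and Ptgds give prostaglandins of the E and D series. Icam1 and Vcam1 are surface proteins that bind leukocyte integrins, and Hcar2 is a receptor for niacin and the ketone body beta-hydroxybutyrate. Nos2, Ptgs2, Icam1 and Vcam1 are textbook targets of the transcription factor NF-kB.

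The promoters are shown because the study concerns transglutaminase 2, whose substrates include the GC-box-binding factor Sp1, and because NF-kB targets are among these genes. RefSeq windows (build GRCm38.p6) were at hand for 5 of the 8 genes, and 4 genes with a window and array values are printed here as the 250 bases before the annotated start, 5′ to 3′ on the gene's strand. Capitals mark matches on either strand to a loose NF-kB-type pattern (GGG, any 5 bases, CC) and to GGGCGG, the GC box.
Ptgs2 (chr1:150099781-150100030, plus strand): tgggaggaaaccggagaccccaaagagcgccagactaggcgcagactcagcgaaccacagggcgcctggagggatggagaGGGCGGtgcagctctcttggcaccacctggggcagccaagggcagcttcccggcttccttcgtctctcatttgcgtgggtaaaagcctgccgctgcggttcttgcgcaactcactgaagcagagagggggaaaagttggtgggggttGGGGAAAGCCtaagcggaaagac
Ptges (chr2:30903298-30903547, minus strand): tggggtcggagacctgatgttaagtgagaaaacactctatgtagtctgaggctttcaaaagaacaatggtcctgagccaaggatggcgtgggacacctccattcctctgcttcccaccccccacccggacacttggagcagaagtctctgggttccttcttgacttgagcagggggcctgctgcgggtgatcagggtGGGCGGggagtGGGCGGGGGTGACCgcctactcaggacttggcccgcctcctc
Ptgds (chr2:25469750-25469999, minus strand): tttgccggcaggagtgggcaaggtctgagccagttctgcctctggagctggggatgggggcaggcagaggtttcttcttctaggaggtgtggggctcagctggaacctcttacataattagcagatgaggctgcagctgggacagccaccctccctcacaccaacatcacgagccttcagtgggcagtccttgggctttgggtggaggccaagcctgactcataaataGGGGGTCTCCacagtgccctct
Icam1 (chr9:21015690-21015939, plus strand): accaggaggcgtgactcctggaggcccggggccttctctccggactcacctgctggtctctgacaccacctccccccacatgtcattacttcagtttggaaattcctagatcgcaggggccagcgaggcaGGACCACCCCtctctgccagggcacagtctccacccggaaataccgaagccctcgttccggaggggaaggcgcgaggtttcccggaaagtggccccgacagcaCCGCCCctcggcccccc
The 4 windows each held the NF-kB-type pattern, as did 45.8% of 32851 promoter windows of the same length, so the match sets these genes little apart. In Ptgs2 it lay 23 to 14 bases before the start, in Ptgds 22 to 13, in Ptges 38 to 29, and in Icam1, on the other strand, 120 to 111. The GC box was present in Ptgs2 (170 to 165 bases before the start), Icam1 (17 to 12, other strand) and Ptges (53 to 48 and 42 to 37, of which the latter overlaps its NF-kB-type match), and in 32.7% of all windows. Ptgds had no match to it in this window. The AP-1-type pattern TGANTCA was found in Ptgds alone among the 4 (35 to 29 bases before the start, 6.75% of all windows). The half-site TGACG was in none of them (17.8% of all windows). A match is a string of letters and was not tested as a binding site. Sites that depart from these patterns are left unmarked, so the capitals need not show the sites in use.

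The labels were checked against Tgm2, the targeted gene, whose brightest probe set read 16656 to 16836 on the WT arrays, 378 and 368 on the untreated KO arrays and 704 and 628 on the KO arrays with ethanol. The hepatocyte markers Alb, Apoa1 and Ttr were bright on all 8 arrays, and the summed intensity of the 10 measured hepatocyte markers lay between 72548 and 77410. Correlations over all complete probe sets were 0.971 to 0.983 within a group and 0.950 to 0.982 between groups. The deposited arrays differed in brightness before normalisation, with trimmed means of 98.5 to 103 on both untreated KO arrays and ethanol KO A and of 199 to 297 on the other 5. The 3′ to 5′ signal ratio of the control transcript Pcx was 26.7 and 44.5 in ethanol WT, 4.91 and 5.45 in ethanol KO, and 8.69 to 16.8 in the untreated groups. The part of brightness and RNA quality in the results below was not tested. Intensities below are quantile normalised, and differences are on the scale log2(intensity + 16), with the standard error (SE) of the limma fit and n = 2 arrays per group.

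With and without ethanol, 6 of the 7 measured genes were higher in KO than in WT cells, and Ptgds was the exception. With ethanol, limma called 6 of 7 lead probe sets higher in KO and 0 lower, and 9 of all 13 probe sets, where 14% of all tested probe sets were called higher. The 6 include Nos2 and Ptgs2, which both passed the filter on dim values only through their KO arrays. Ptgs2 was also known beforehand to be low on the ethanol WT arrays, so this count is a description. The calls for Ptges, Icam1 and Vcam1 carry neither limit. Nor does that of Hcar2, but this gene was chosen for its increase in untreated KO cells, and its SE pools those arrays. The median difference over the 7 leads was 1.82, against -0.05 over all tested probe sets. Without ethanol, 6 of 7 leads and 11 of 13 probe sets passed the same threshold (15.3% of all tested probe sets), a count that the choice of Nos2 and Hcar2 fixed in part and from which nothing is read. The 4 KO arrays lay above the 4 WT arrays for all member probe sets except both of Ptgds and 1 of the 3 of Vcam1. Such a complete separation was seen for 12.9% of all tested probe sets. It rests in part on the arrays in which Nos2, Hcar2 and Ptgs2 had stood out. The Nos2 and Ptgs2 probe sets also passed the filter only through KO arrays, so nothing is read from this count.

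**Figure D1:**
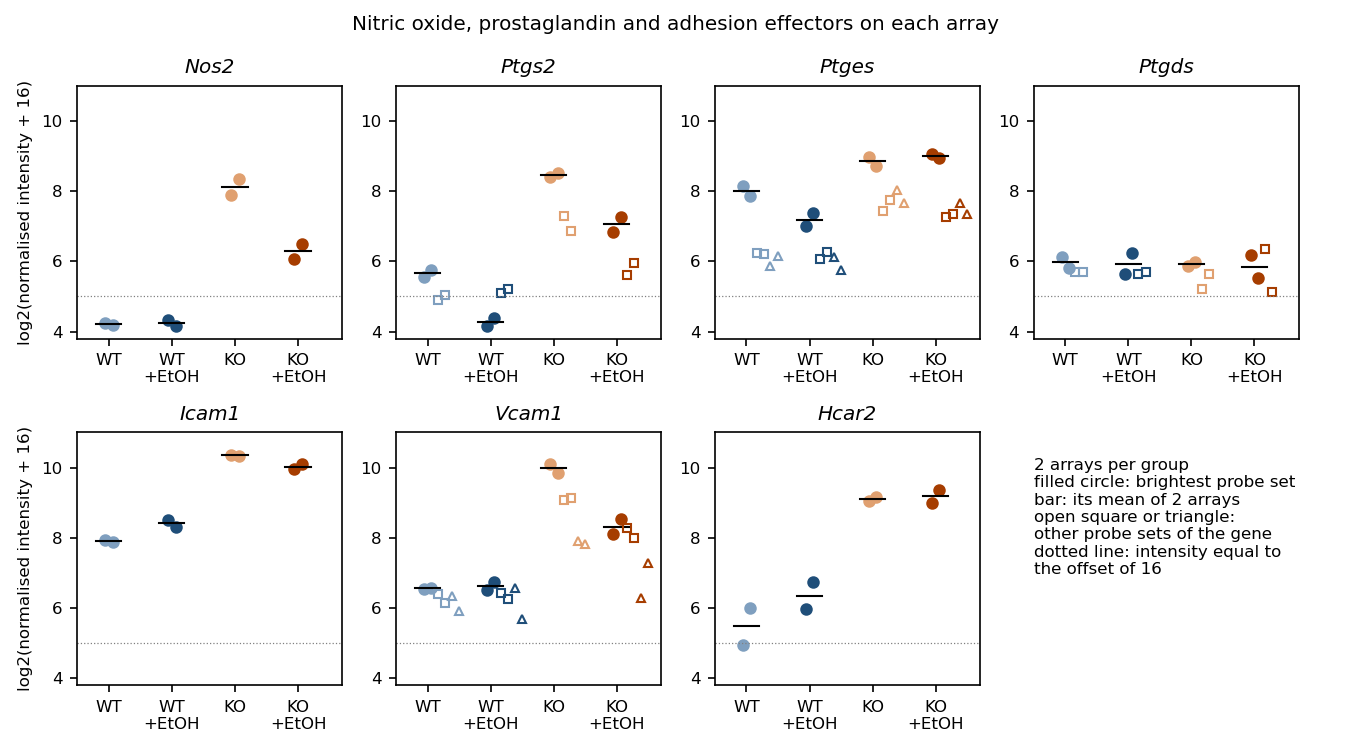
Normalised intensity of the 7 measured genes on each of the 8 arrays, as log2(intensity + 16), by group (WT, WT with ethanol, KO, KO with ethanol). Filled circles are the brightest probe set, bars its mean of 2 arrays, open symbols the other probe sets, and the dotted line an intensity of 16. Apart from Ptgds, the lead points of the 4 KO arrays lie above those of the 4 WT arrays.

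Nos2 was near the floor of the array in WT cells and clearly measured in KO cells. Its single probe set read 2.75 and 2.28 in WT cells without ethanol and 4.13 and 1.73 with it. In KO cells it read 222 and 309.8 without ethanol and 51.5 and 74.2 with it. The WT values lay below the offset of 16, so the WT level has no order of its own and the size of any difference from it depends on the offset. The order of the groups was untreated KO, then ethanol KO, then both WT groups, whose ranges overlap. With ethanol the KO minus WT difference of Nos2 was 2.05 ± 0.30, with 0.92 at an offset of 64 and 4.53 with no offset. It is given without a p-value, because the probe set passed the filter on dim values only through its KO arrays. Without ethanol the difference was 3.91 ± 0.30. The ethanol difference in KO cells was -1.84 ± 0.30, and the 2 KO groups did not overlap. It passed the threshold at the offset of 16 and not with no offset. This comparison shares the untreated KO arrays in which Nos2 had been seen to be high, which favours a lower value with ethanol.

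The other genes of the nitric oxide pathway went in both directions. Of 23 listed genes, 21 were measured and 20 tested. With ethanol, 2 were higher and 5 lower in KO, against 14% and 15.1% of all tested probe sets, and the median was -0.05 (0.039 under trimmed-mean scaling), against -0.05 over all probe sets. Slc7a2, a transporter that brings arginine into the cell, read 236 and 172 in WT cells without ethanol and 232 and 210.3 with it, and 1487 and 1444 in KO cells without ethanol and 736 and 569 with it. It was higher in KO with ethanol by 1.48 ± 0.16 (adjusted p = 0.00018) and fell with ethanol in KO by 1.16 (SE 0.16, adjusted p = 0.0017), on this and on both other tested probe sets. Its pattern over the groups therefore ran in the order seen for Nos2. Spr, sepiapterin reductase, which helps to make the nitric oxide synthase cofactor tetrahydrobiopterin, was lower in KO with ethanol (-0.59 ± 0.11, adjusted p = 0.0030). So was Qdpr, which regenerates the cofactor (-0.57 ± 0.08, adjusted p = 0.00075). Gch1, of the same cofactor route, was called higher (0.29 ± 0.08, adjusted p = 0.028), but not on its other tested probe set. With ethanol in KO, 4 listed genes rose and 4 fell (11.4% and 10.8% of all tested probe sets). Among the latter was Ddah1, which degrades methylarginine inhibitors of nitric oxide synthases (-0.79 ± 0.09, adjusted p = 0.00085). It was not called lower on its other 2 tested probe sets.

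Ptgs2, the inducible cyclooxygenase, was higher in KO and lower with ethanol in both genotypes on its brightest probe set. That probe set read 31.2 and 38.4 in WT cells without ethanol and 1.83 and 4.80 with it, and 325 and 349 in KO cells without ethanol and 98.2 and 138 with it. The 4 groups did not overlap, in the order untreated KO, ethanol KO, untreated WT and ethanol WT. With ethanol, KO exceeded WT by 2.78 ± 0.24, and without it by 2.80 ± 0.24. The former comparison shares the ethanol WT arrays, in which Ptgs2 was known to be low when it was chosen. The probe set also passed the filter on dim values only through its KO arrays. Since ethanol WT lay below the offset, the difference with ethanol was 1.43 at an offset of 64 and 5.30 with no offset. With ethanol Ptgs2 fell in KO (-1.41 ± 0.24, adjusted p = 0.0040, and 0.055 with no offset), and the difference in WT was -1.40 ± 0.24. The WT value depends on the offset too, and ran from -3.55 to -0.55 over the alternatives.

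The other Ptgs2 probe set was dimmer and differed from the lead in WT cells. It read 13.9 and 17.2 in WT cells without ethanol and 18.6 and 21.2 with it, and 141 and 102 in KO cells without ethanol and 32.9 and 46.1 with it. The difference with ethanol in KO was -1.30 ± 0.29. It is given without a p-value, because this probe set passed the filter on dim values only through the untreated KO arrays, the baseline here. In WT, however, this probe set had a difference of 0.19 ± 0.29 with ethanol, against the -1.40 of the lead. The KO minus WT difference with ethanol was 0.62 ± 0.29 and was not called, although all KO values lay above all WT values. The decrease in WT and the size of the KO excess with ethanol thus rest on 1 of the 2 Ptgs2 probe sets.

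Ptges, the inducible synthase that turns the cyclooxygenase product into prostaglandin of the E series, was higher in KO on all 3 probe sets. The lead read 267 and 218 in WT cells without ethanol and 112 and 150.05 with it, and 492 and 404 in KO cells without ethanol and 523 and 479 with it. The 2 KO groups overlap and both lie above untreated WT, which lies above ethanol WT. With ethanol, KO exceeded WT by 1.82 ± 0.17 (adjusted p = 6.9e-05) on the lead and by 1.14 ± 0.20 and 1.56 ± 0.24 on the others (adjusted p = 0.0026 and 0.0012). Without ethanol the 3 differences were 0.84 ± 0.17, 1.36 ± 0.20 and 1.83 ± 0.24. Ethanol in KO did not pass the test on any of the 3 (0.16 ± 0.17 on the lead, adjusted p = 0.53). In WT the lead was lower with ethanol (-0.82 ± 0.17) and the others were not called (-0.07 ± 0.20 and -0.07 ± 0.24).

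Ptgds, which makes prostaglandin of the D series and is known mainly from brain and male genital tract, showed no group pattern. The lead read 53.9 and 40.4 in WT cells without ethanol and 33.8 and 59.3 with it, and 42.8 and 47.6 in KO cells without ethanol and 56.6 and 29.96 with it. All 4 groups overlap, and the A and B arrays of ethanol KO span nearly the whole range. The KO minus WT difference with ethanol was -0.08 ± 0.33 (adjusted p = 0.88) on the lead and 0.07 ± 0.40 (adjusted p = 0.92) on the other probe set.

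Among the other genes of prostaglandin metabolism, Hpgd and Ptgr1 had the largest differences between the genotypes with ethanol. Of 36 listed genes of prostaglandin and eicosanoid metabolism, 33 were measured and 18 tested. With ethanol, 1 was higher and 3 were lower in KO (14% and 15.1% of all tested probe sets), with a median of -0.23 that became 0.0045 under trimmed-mean scaling. The 3 lower genes were Hpgd, Ptgr1 and Cbr1. Hpgd, the dehydrogenase that inactivates prostaglandins, read 749 and 765 in WT cells without ethanol and 1025 and 973 with it, and 251 and 206 in KO cells without ethanol and 216 and 253 with it. Its difference with ethanol was -2.02 ± 0.13 (adjusted p = 5.8e-06). The other tested Hpgd probe set was not called lower with ethanol, but was called lower without it. Ptgr1, a prostaglandin reductase of the same route, read 522 and 560.1 in WT cells without ethanol and 711 and 692 with it, and 137 and 148 in KO cells without ethanol and 209 and 220.3 with it. Its difference with ethanol was -1.64 ± 0.11 (adjusted p = 1.1e-05). Cbr1, a carbonyl reductase that also acts on prostaglandins, had -0.70 ± 0.10 (adjusted p = 0.0010). Without ethanol 9 of the 18 were lower in KO and 0 higher (16.9% and 15.3% of all tested probe sets), with a median of -0.65. With ethanol in KO 7 rose and 0 fell (11.4% and 10.8% of all tested probe sets, median 0.40). The smallest adjusted p-values were those of Pla2g6, a calcium-independent phospholipase (0.85 ± 0.12, adjusted p = 0.0017), and Mgll, which releases arachidonic acid by way of monoacylglycerol (1.13 ± 0.19, adjusted p = 0.0034). Neither was called higher on its 2 other tested probe sets.

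Icam1, which binds the leukocyte integrin LFA-1, was higher in KO with the smallest error of the 7 genes. It read 227 and 219 in WT cells without ethanol and 348 and 303 with it, and 1303 and 1267 in KO cells without ethanol and 985 and 1074 with it. The 4 groups did not overlap. With ethanol, KO exceeded WT by 1.62 ± 0.10 (limma adjusted p = 7.6e-06), and without it by 2.45 ± 0.10. In WT the ethanol arrays were higher by 0.51 ± 0.10, and in KO lower by 0.32 (log2 difference -0.32 ± 0.10, adjusted p = 0.057), which did not pass the threshold (adjusted p = 0.028 to 0.43 over the alternatives).

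Vcam1, which binds the integrin VLA-4, was higher in KO and lower with ethanol in KO. The lead probe set read 77.2 and 78.7 in WT cells without ethanol and 75.3 and 90.7 with it, and 1088 and 905 in KO cells without ethanol and 261 and 352 with it. The 2 WT groups overlap, while both KO groups stand apart from them and from each other. KO exceeded WT by 1.69 ± 0.18 with ethanol (adjusted p = 0.00013) and by 3.42 ± 0.18 without. With ethanol it fell in KO (-1.66 ± 0.18, adjusted p = 0.00059), and the WT difference was 0.07 ± 0.18. The next probe set gave 1.79 ± 0.17 for KO minus WT with ethanol (adjusted p = 8.7e-05) and -0.97 ± 0.17 for ethanol in KO (adjusted p = 0.0048). The dimmest probe set was called in neither (0.66 ± 0.37 and -1.08 ± 0.37, adjusted p = 0.22 and 0.065). Its ethanol KO arrays read 61.7 and 139, and the former lay within the WT range.

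Other leukocyte adhesion genes were mixed. Of 28 listed, 27 were measured and 18 tested, and with ethanol 4 were higher and 1 lower in KO, against 14% and 15.1% of all tested probe sets (median 0.22, and 0.43 under trimmed-mean scaling). Cd44, a hyaluronan receptor, read 317 and 310.1 in WT cells without ethanol and 235 and 245 with it, and 1182 and 1189.6 in KO cells without ethanol and 486 and 638 with it. It was higher in KO with ethanol by 1.16 ± 0.13 (adjusted p = 0.00020) and fell with ethanol in KO by 1.07 (SE 0.13, adjusted p = 0.00091). Itgb1, the integrin beta chain that pairs with the alpha chain of VLA-4, was higher by 0.97 ± 0.09 (adjusted p = 7.7e-05), also on 1 of its 2 other tested probe sets. Msn, moesin, which links membrane proteins such as Icam1 to actin, was lower by -0.91 ± 0.11 (adjusted p = 0.00028), but not on its other probe set. With ethanol in KO 1 listed gene rose and 4 fell, against 11.4% and 10.8%. Among those that fell was Ezr, the related linker ezrin (-1.06 ± 0.16, adjusted p = 0.0020, not called lower on its other probe set).

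Hcar2 was higher in KO, and its ethanol difference there was smaller than its error. It read 14.9 and 47.7 in WT cells without ethanol and 46.5 and 90.5 with it, and 511 and 559.6 in KO cells without ethanol and 495 and 644 with it. The KO groups overlap each other, as do the WT groups, and no KO array comes near a WT array. KO exceeded WT by 2.83 ± 0.34 with ethanol (limma adjusted p = 0.00032) and by 3.63 ± 0.34 without. The ethanol arrays played no part in the choice of Hcar2, but the SE pools the spread of all groups, including the untreated arrays that did. The ethanol difference was 0.08 ± 0.34 in KO and 0.88 ± 0.34 in WT, and neither was called. Of 13 listed receptors for hydroxycarboxylic and fatty acids and their signalling partners, 11 were measured and 9 tested, with 2 higher and 2 lower in KO with ethanol (14% and 15.1% of all tested probe sets). The inhibitory G-protein subunits through which such receptors signal went both ways. Gnai3 had 0.46 ± 0.07 (adjusted p = 0.00078, not called higher on its other probe set) and Gnai2 -0.57 ± 0.11 (adjusted p = 0.0039). The arrestin gene Arrb2, which acts in receptor desensitisation, was lower in KO with ethanol (-0.68 ± 0.13, adjusted p = 0.0033) and rose with ethanol in KO (0.84 ± 0.13, adjusted p = 0.0022).

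**Figure D2:**
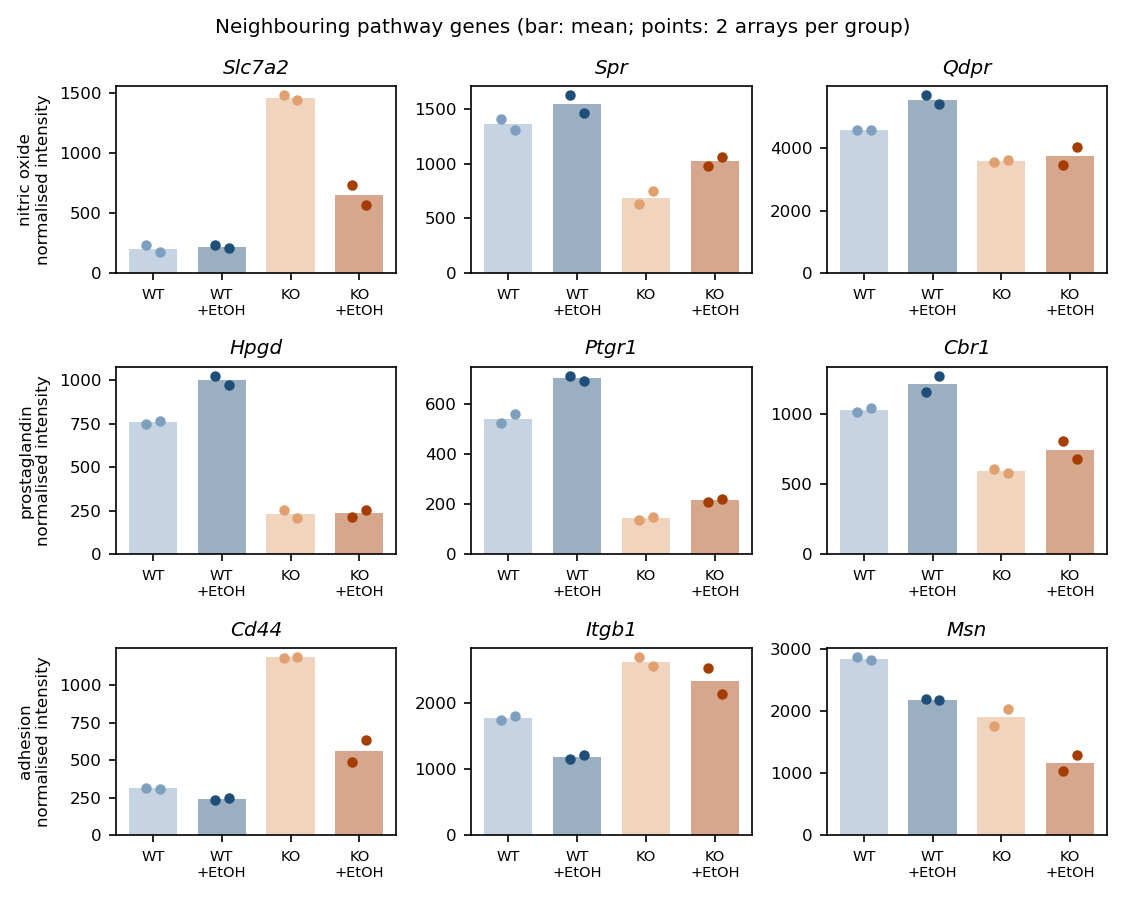
Normalised intensity of 9 genes from the nitric oxide, prostaglandin and adhesion lists in the 4 groups, with bars for the mean and points for the 2 arrays of a group. Slc7a2, Cd44 and Itgb1 are higher in KO with and without ethanol, and Spr, Qdpr, Hpgd, Ptgr1, Cbr1 and Msn are lower.

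With ethanol in KO cells, 3 of the 7 leads were called lower, Nos2, Ptgs2 and Vcam1, and 0 higher (5 and 0 of the 13 member probe sets), where 10.8% of all tested probe sets fell. Nos2 was chosen for its level on the untreated KO arrays that form the baseline here, so its place in this count is favoured by that choice. The choice did not draw on Vcam1 or on Ptgs2 in KO. The Nos2 and the dimmer Ptgs2 probe set also passed the filter on dim values only through the untreated KO arrays. The median over the 7 leads was -0.32, against -0.0054 over all tested probe sets. In WT cells 1 of the 7 leads, Icam1, was higher with ethanol and 2, Ptgs2 and Ptges, were lower (1.67% and 3.91% of all tested probe sets). Ptgs2 was chosen for its decrease in this comparison, and nothing is read from the count. These 2 comparisons share no array, but each shares its untreated arrays with the KO against WT comparison.

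**Figure D3:**
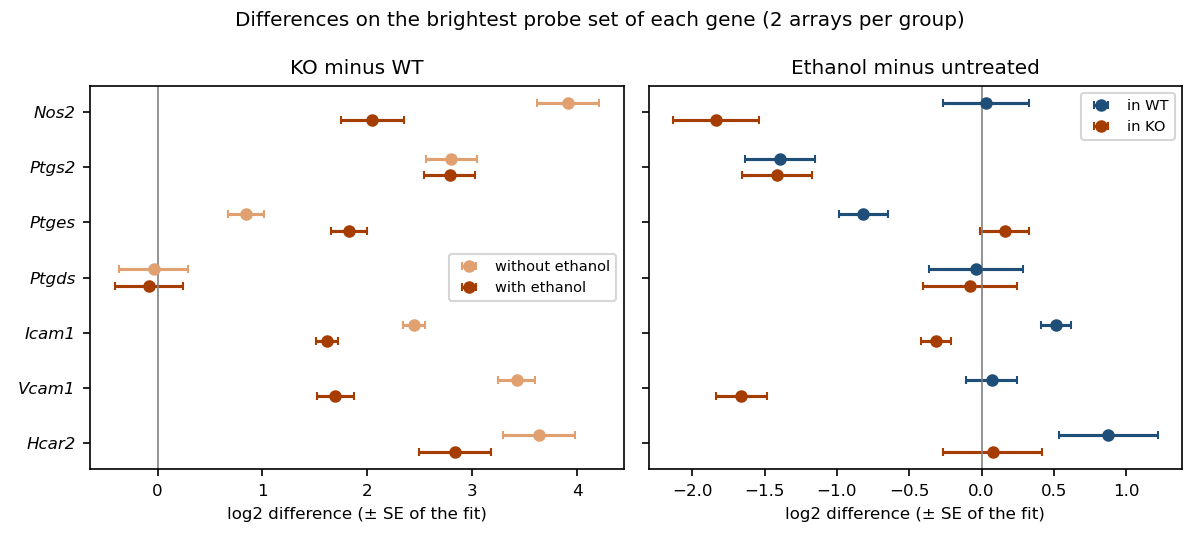
Differences on the lead probe set of each gene, on the log2(intensity + 16) scale with the SE of the limma fit, for KO minus WT (left) and for ethanol minus untreated (right). For 6 genes the KO minus WT values lie above 0 in both conditions, and in KO the ethanol values of Nos2, Ptgs2 and Vcam1 lie between -1.84 and -1.41.

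Whether the ethanol difference was unequal in the 2 genotypes was tested by the interaction term, which was called for 4 of 7 leads, 1 positive and 3 negative, where 3.57% and 1.78% of all tested probe sets were called. This term uses the arrays of both comparisons known when the genes were proposed, so the count is a description, and the values of Nos2, Ptgs2 and Hcar2 are given without a p-value. For Vcam1 the ethanol effect in KO minus that in WT was -1.73 ± 0.25 (limma adjusted p = 0.0069) on the lead and -1.05 ± 0.25 (adjusted p = 0.042) on the next probe set. It was -1.87 ± 0.42 for Nos2, whose WT values lay below the offset, and its call was lost without a filter, with no offset and under trimmed-mean scaling. For Icam1 it was -0.83 ± 0.15 (adjusted p = 0.015), from a higher value with ethanol in WT and a lower one in KO. For Ptges it was 0.98 ± 0.24 (adjusted p = 0.048), with a lead that was lower with ethanol in WT and not called in KO, while its other probe sets gave -0.22 ± 0.28 and -0.27 ± 0.33 (adjusted p = 0.69 and 0.68). Ptgs2 had -0.02 ± 0.34 on the lead, which became 2.02 with no offset, and -1.49 ± 0.41 on the other probe set. Hcar2 had -0.80 ± 0.48 and Ptgds -0.05 ± 0.46 (adjusted p = 0.96). These calls changed with single arrays: leaving out 1 left 0 to 4 of the 7, with 0 when untreated KO A was left out and 1 without untreated WT A, ethanol WT A, untreated WT B or untreated KO B, and 2 without ethanol KO A or ethanol WT B. Without an intensity trend in the variance prior, or when the B ethanol arrays count as untreated, 0 passed.

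**Figure D4:**
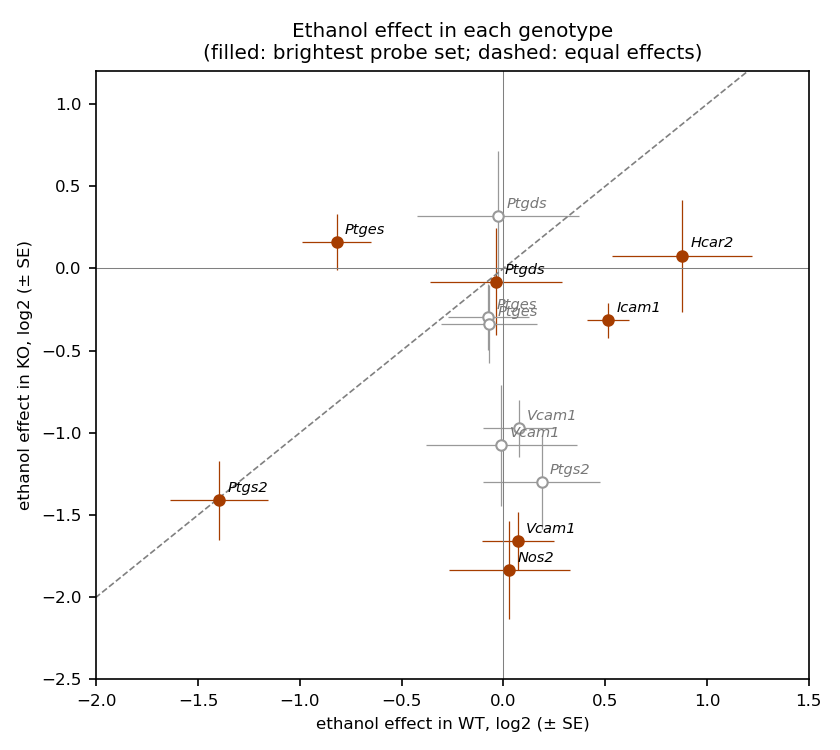
Ethanol minus untreated in KO (vertical) against the same in WT (horizontal), as log2 differences with the SE of the limma fit. Filled points are lead probe sets, open points the other probe sets of a gene, and the dashed line equal effects. Nos2 and Vcam1 lie near 0 in WT and between -1.84 and -0.97 in KO, and the lead Ptgs2 lies on the line at the offset of 16, a place that depends on the offset.

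For KO minus WT with ethanol, all 6 calls were kept in each of the 8 fits without 1 array and when the B ethanol arrays were left out. Counting those arrays as untreated, as their treatment text reads, left 3 calls, Ptges, Icam1 and Hcar2 (adjusted p = 0.015, 0.020 and 0.028), and left 0 of the 3 calls for ethanol in KO. Trimmed-mean scaling moved the median of all tested probe sets by 0.11 in KO minus WT with ethanol and left the 6 members at 1.58 to 2.95. Arrays also fell into 2 sets by the ratio of the spike-in controls bioC and bioB, below 2 on 3 A arrays and above it on the other 5. Each set holds 1 ethanol KO and 1 ethanol WT array. The differences with ethanol within the sets are thus those of single arrays, and the separation of KO from WT given above fixed their sign. KO exceeded WT by 1.75 and 2.35 for Nos2, 2.68 and 2.89 for Ptgs2, and 2.07 and 1.58 for Ptges. The values were 1.46 and 1.77 for Icam1, 1.60 and 1.79 for Vcam1, and 3.03 and 2.63 for Hcar2. Ethanol KO B and ethanol WT B were bright arrays, and their differences are the latter of each pair. For ethanol in KO, the set above 2, with 1 ethanol array, gave -1.63 for Nos2, -1.20 for Ptgs2 and -1.46 for Vcam1. The other set holds no untreated KO array.

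The 7 genes also differed in how alike their profiles were over the 8 arrays, taken as the root mean square difference of log2 values after each probe set's mean was subtracted. Nos2 and Vcam1 were the most alike pair (0.30), followed by Ptgs2 with Vcam1 (0.55) and Nos2 with Ptgs2 (0.55). Hcar2 was nearest to Icam1 (0.73). Among 10734 genes searched, which left out the members themselves, those nearest to Nos2 were Nfkbiz (0.35), Tnfaip3 (0.40), Tnfaip2 (0.40), the cytokine Il6 (0.44) and the growth factor Csf3 (0.47). Csf3 was nearest to Ptgs2 (0.23), before Il6 (0.45), Nfkbiz (0.45), Tnfaip3 (0.46) and Cpe (0.49). Hcar2 had another set of neighbours, with the lipid droplet gene Cidea (0.29) before Rbm45 (0.48), the chemokine Ccl3 (0.53), Rgs16 (0.57) and Pde4b (0.59). The Nos2 intensities of both WT groups and the lead Ptgs2 intensities of ethanol WT lay below the offset. Distances that involve Nos2 or Ptgs2, to members or to neighbours, therefore depend on the offset. The Ptgs2 profile is that of its lead probe set. Its difference with ethanol in WT (-1.40) was not shared by the other Ptgs2 probe set (0.19). The values describe 8 arrays in 4 groups and were not tested.

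Markers of other liver cells were set beside these results, since Icam1, Vcam1, Nos2 and Hcar2 are also made by macrophages, endothelial or stellate cells. In bulk RNA, fewer cells of a type and less RNA per cell cannot be told apart. The summed intensity of 15 of 16 macrophage markers was 5159 to 5558 in untreated WT, 7092 to 7324 in ethanol WT, 6215 to 6272 in untreated KO and 8394 to 8986 in ethanol KO. Cd14 and Cd68 made up most of it, Cd68 with 411 to 569.6 on WT and 1236 to 1859 on KO arrays. With ethanol 1 of the 13 tested macrophage markers was higher and 1 lower in KO (14% and 15.1% of all tested probe sets). Without ethanol 1 was higher and 3 were lower (15.3% and 16.9%). Marco read 27.1 to 65.3 on KO and 109 to 142 on WT arrays. Of the defining macrophage markers, Adgre1 and Csf1r read lower on both KO arrays without ethanol, and overlapped between genotypes with it. Without ethanol Adgre1 read 108 and 134 in WT and 84.1 and 70.6 in KO, and Csf1r 182 and 151 in WT and 97.2 and 102 in KO. With ethanol Adgre1 read 127 and 99.4 in WT and 109.7 and 88.0 in KO, and Csf1r 196 and 161 in WT and 201 and 132 in KO. Clec4f read 64.4 to 91.1 over all 8 arrays. The sum of the 13 endothelial markers lay between 913 and 1122 on the 8 arrays. The 12 stellate markers summed to 665 to 766 in untreated WT, 514 to 723 in ethanol WT, 862 to 910.1 in untreated KO and 926 to 1291 in ethanol KO. Dcn read 234 to 347 on KO and 66.1 to 124 on WT arrays. With ethanol Ecm1 read 526 and 426 in KO and 218 and 222 in WT. Without ethanol it overlapped between genotypes. Acta2 read 273 and 22.7 in ethanol KO. Of the defining stellate markers, Lrat and Pdgfrb did not exceed 28.2. Des read 70.3 and 51.8 in ethanol KO and 45.01 and 29.1 in ethanol WT, and overlapped without ethanol. Col1a1, near the floor, was lower on every KO than on any WT array. The sum of the 5 measured of 7 cholangiocyte markers was higher in KO (769 to 1122) than in WT (318 to 461). This came almost wholly through Sox9 (686 to 1049 against 232 to 323). Krt7, Krt19 and Epcam, which define that cell type, did not exceed 122 and overlapped between genotypes. Neutrophil markers (10 of 12) summed to 254 to 469 and lymphocyte markers (8 of 10) to 103 to 189. Probe sets with an exact 0 had been left out beforehand, so no measured marker could read 0. Ly6g, a defining neutrophil marker, was not among those measured. The part of other cell types in the results was not tested.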

How the data were processed

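Expression in mouse primary hepatocytes was measured on 8 one-colour Affymetrix arrays, 2 in each of 4 groups taken from the sample titles. The deposited values are linear intensities of 45101 probe sets (64 of them controls) on each array. Summarisation software, scaling and genome build were not given in the sources used here. On ethanol WT B, 5410 values were unusable (5403 exact zeros), none of them of a member, and 39627 complete probe sets were kept. Intensities were quantile normalised and transformed as log2(intensity + 16), which understates differences of dim genes. Tests covered the brighter 50% by mean (19814 probe sets, mean intensity 26.2 or more). The model, in limma 3.58.1 under R 4.3.3, had a mean for each of the 4 groups over all 8 arrays and let the prior variance follow intensity (4 residual and 5.43 prior degrees of freedom). p-values were adjusted by Benjamini-Hochberg over all tested probe sets within each of 5 contrasts, and called under 0.05. The fit was tested on simulated data.

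The platform annotation gave 34958 probe sets 1 symbol, 932 several and 9211 none. The members and lists were chosen with earlier results of these data known. Named genes were all members and the 5 nearest profiles of Nos2, Ptgs2 and Hcar2. From each pathway list came the 3 genes with the smallest adjusted p among those called in KO minus WT with ethanol. The 2 smallest in ethanol in KO were also named, and Gch1 was added beside Spr and Qdpr. Deviations of same-lettered arrays correlated at 0.204 to 0.302 among untreated WT, ethanol WT and ethanol KO, whose A arrays also share the low spike-in ratio, and at 0.0218 to 0.0308 with untreated KO. Since not every pair passed 0.1, the letters were not used as pairs. Alternatives covered the offset, filter, scaling, variance prior, replicate block, spike-in term, left-out arrays, the B ethanol arrays, the samples fitted, missing values and 1 probe set per gene. The number of arrays limits the precision.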

Additional observations from a re-analysis of the deposited data

Results flagged for a closer look

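Ethanol effects that differed between the genotypes, by the interaction term of the limma fit, stood out for 4 of the 7 genes (3.57% of all tested probe sets had a positive and 1.78% a negative call). The term uses arrays known when the genes were chosen, among them the untreated KO arrays in which Nos2 was high, so the Nos2 value is a description. The ethanol effect in KO minus that in WT was -0.83 for Icam1, -1.87 for Nos2, 0.98 for Ptges on its brightest probe set, and -1.73 and -1.05 for Vcam1 on its brightest and next probe sets. The Nos2 value rests on WT intensities of 1.73 to 4.13, below the offset of 16. The Ptges value was not shared by its other probe sets (-0.22 and -0.27).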

How the results depend on the processing

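In 21 alternative fits, 713 values were recomputed for single genes. Of these, 66 lost a call, 6 gained one and 29 were counted as changed in sign. The other 612 kept their side of the threshold. In the 2 comparisons described without a p-value, sign changes of uncalled values were not counted and stand among the 612. An example is Nos2 with ethanol in WT, which ran from -0.062 to 0.14. For KO minus WT with ethanol, 6 of 7 leads were called under all alternatives except the B ethanol arrays counted as untreated (3) and the top 30% filter, which removed Nos2, Ptgs2 and Ptgds from the test (4). For ethanol in KO the 3 calls became 1 with no offset and 0 with those arrays counted as untreated. For the interaction, 4 became 2 with no offset, 2 without a filter, 0 without a variance trend, 0 when the B ethanol arrays count as untreated, and 0 to 4 without 1 array. For ethanol in WT, 3 became 1 without a variance trend, 0 when the B ethanol arrays count as untreated, and 0 to 3 without 1 array (0 without untreated WT A, ethanol WT A or untreated WT B). Over all tested probe sets, the 5770 calls of KO minus WT with ethanol became 1367 when the B ethanol arrays count as untreated, 3721 with 1 probe set per gene and 3306 to 7524 without 1 array. The 4394 of ethanol in KO became 380 with those arrays counted as untreated, 7351 with them left out, 2682 without a variance trend, 2441 with the compared groups alone and 1642 to 7479 without 1 array. The 1061 of the interaction became 0, 3261 and 85 under the first 3 of these settings, 663 without a filter, 609 with 1 probe set per gene and 199 to 4380 without 1 array. KO minus WT without ethanol (6394) ran from 3972 to 8130 without 1 array. The 1105 of ethanol in WT became 0 when the B ethanol arrays count as untreated, 286 without a variance trend, 715 without a filter, 573 with 1 probe set per gene and 284 to 2088 without 1 array.

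The replicate block (A and B as a term) gave 6 calls for KO minus WT with ethanol, 3 for ethanol in KO and 3 for the interaction, where the Ptges adjusted p became 0.0503. Deviations of same-lettered arrays correlated in 3 of the 4 groups and not with untreated KO.

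None of the counted sign changes concerned a called value. Ptgds in KO minus WT with ethanol (-0.08) became 0.17 under trimmed-mean scaling, 0.55 with the B ethanol arrays left out or counted as untreated, 0.039 with incomplete probe sets kept, and -0.41 to 0.25 without 1 array. Ptgds with ethanol in KO (-0.08) became 0.13 under trimmed-mean scaling, 0.25 with the B ethanol arrays left out, 0.39 with them counted as untreated, and -0.41 to 0.25 without 1 array. Hcar2 with ethanol in KO (0.08) became -0.11 with these arrays left out, -0.20 with them counted as untreated, and -0.11 to 0.26 without 1 array. The Ptgs2 interaction (-0.02) became 2.02 with no offset, 0.16 under trimmed-mean scaling, 0.13 with the spike-in term, 0.035 with incomplete probe sets kept, and -0.23 to 0.20 without 1 array. The Ptgds interaction (-0.05) became 0.21 under trimmed-mean scaling, 0.58 with the B ethanol arrays left out, 0.81 with them counted as untreated, 0.081 with incomplete probe sets kept, and -0.38 to 0.28 without 1 array. The cause was not tested. Dim WT values of Nos2 and Ptgs2 limit what their fold sizes can say.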
